A study of Homo sapiens with 4 samples.

Results

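The protein genes of the minor spliceosome were followed in the established human myeloma line H929, in the absence and presence of the splicing inhibitor meayamicin B. The 9 genes listed were RNPC3, ZMAT5, SNRNP25, SNRNP35, SNRNP48, PDCD7, ZRSR2, ZCRB1 and SCNM1, and their values were read from rows of the array table that name a single gene. Of the 9, 7 had such a row, out of 33616 genes with a row of their own, and ZCRB1 and SCNM1 were each named only on a row shared with another gene. Biotin-labelled total RNA was hybridised, 1 sample to an array, for 2 untreated samples and 2 that received meayamicin B (3 nM, 8 h). The titles of the untreated samples also give 8 h. All 4 samples were of the same line, the labels name no vehicle for the untreated samples, and they do not say whether replicates were separate cultures. The p-values therefore rest on array-to-array spread that may be only technical.

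Most human introns are removed by the major spliceosome, but a small class, the U12-type introns, is removed by a minor spliceosome. In it the U11 and U12 snRNPs bind together as a di-snRNP, with U11 at the 5′ splice site and U12 at the branch site, and U4atac, U6atac and U5 complete the machine. The di-snRNP carries its own set of proteins beside the Sm ring and the SF3B complex, which it shares with the major spliceosome. Meayamicin B binds SF3B and inhibits pre-mRNA splicing, so the question here was whether the messages of the minor-specific proteins differed after exposure.

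The deposited values are log2 expression, and background was set per array at the 95th percentile of 612 negative control rows, which gave 4.50 and 4.76 untreated and 5.03 and 5.13 treated. A gene was taken as above background where both arrays of at least 1 group passed it. All 7 genes lay above it in all 4 arrays. Of 11 plasma cell and myeloma markers 11 were above background, and their mean log2 level was 10.07 and 10.12 untreated and 9.76 and 9.79 treated, lower in both treated arrays. Not every marker fell. PRDM1 and IRF4 had log2 differences of 0.45 and 0.16, and the others ran from -0.10 for SDC1 to -1.52 for SLAMF7. Of 9 T cell, monocyte and fibroblast markers 4 were above it (CD3E, CSF1R, COL1A1 and COL1A2). The other 5 (CD3D, CD2, CD14, LYZ and PDGFRB) were not. The mean log2 levels, replicate 1 first, were 4.44 and 4.33 untreated and 4.54 and 4.47 treated for the T cell markers. For monocyte markers they were 4.47 and 4.25 against 4.51 and 4.63, and for fibroblast markers 6.04 and 5.73 against 6.05 and 6.15. In all 3 of these lists the mean of both treated arrays was above that of both untreated arrays, but single markers differed. The log2 differences were 0.10 for CD3D, 0.30 for CD3E and -0.05 for CD2. They were 0.15 for CD14, 0.87 for LYZ and -0.40 for CSF1R. For COL1A1, COL1A2 and PDGFRB they were 0.42, 0.20 and 0.02. LYZ was below background in all 4 arrays. The part of these markers in the results below was not tested. In bulk RNA a lower level per cell and fewer cells of a kind cannot be told apart.

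None of the 7 genes passed limma's test with its default prior over all 135750 rows (adjusted p 0.603 to 0.992, with 0 unadjusted p under 0.05). Among the 14296 genes above background, 0.0699% passed that test and 23.5% had an unadjusted p under 0.05. With a prior variance that follows the signal level, called the trended prior here, 0 of the 7 passed again (limma adjusted p 0.428 to 0.992), against 7.25% of the genes above background. Differences ran from -0.23 for ZRSR2 to 0.40 for SNRNP48 on the log2 scale, with SEs of 0.18 to 0.21. Their median was 0.08, beside -0.09 over all genes above background. The 95% confidence intervals of the 7 genes together spanned -0.66 to 0.87, or 0.632 to 1.826 times the untreated level. Each interval thus excludes a doubling and a halving of the normalised value. Like the p-values, the intervals rest on array-to-array spread that may be only technical. Genes above background called with the trended prior had a median absolute difference of 1.02, and the smallest of them was 0.45.

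**Figure D1:**
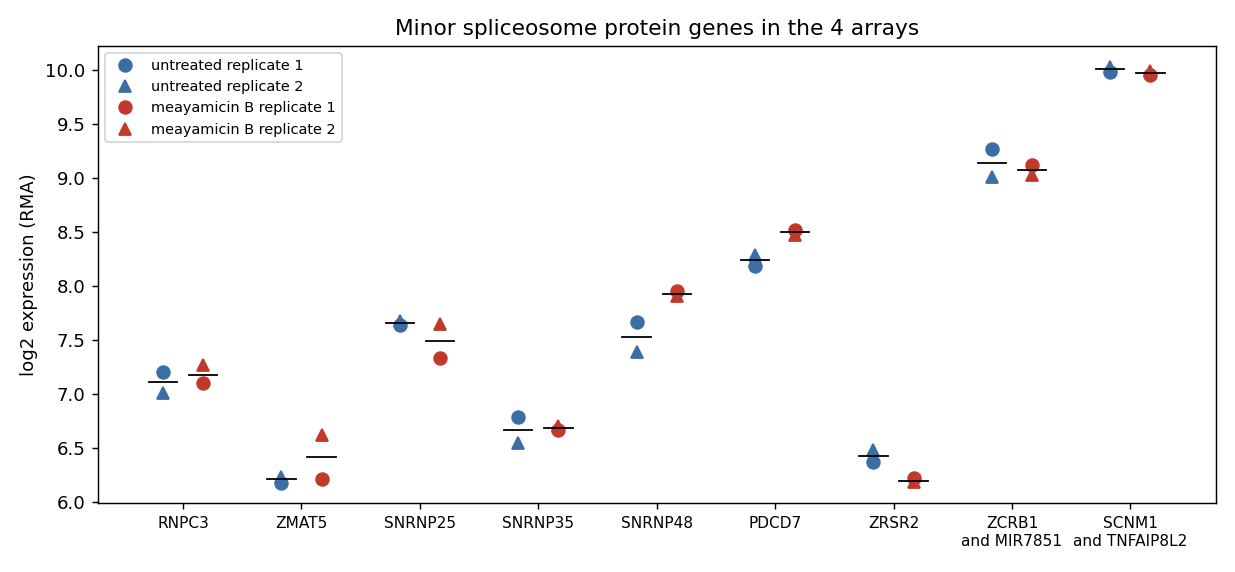
Log2 expression (vertical axis) of each gene in the 2 untreated arrays (blue) and the 2 meayamicin B arrays (red), circles for replicate 1 and triangles for replicate 2, with the group mean as a bar. The 2 rows at the right name a second gene. Levels of different genes are not comparable on arrays. The groups do not overlap for SNRNP48, PDCD7 and ZRSR2, and they overlap for the other genes and rows.

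The groups were separated, without passing a test, for 3 of the 7 genes. SNRNP48 and PDCD7 were higher in both treated arrays, where 18.9% of genes above background had non-overlapping groups in that direction. ZRSR2 was lower in both, where the corresponding share was 39.5%. The sequence before the start of each of these 3 genes is shown to give their regulatory context, and that of RNPC3 because it differs most from the others in composition. Each is the 250 bases before the gene start on the coding strand, from RefSeq on GRCh38.p14. Capitals mark the letters of a GC box (GGGCGG) or a CCAAT box (CCAAT) on either strand, with overlapping matches counted separately.
SNRNP48, chr6:7589948-7590197, plus strand: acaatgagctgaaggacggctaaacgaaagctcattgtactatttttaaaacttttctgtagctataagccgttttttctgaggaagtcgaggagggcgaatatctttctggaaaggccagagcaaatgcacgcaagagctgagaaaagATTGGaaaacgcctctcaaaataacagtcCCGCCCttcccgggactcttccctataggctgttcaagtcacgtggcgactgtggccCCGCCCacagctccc
PDCD7, chr15:65133809-65134058, minus strand: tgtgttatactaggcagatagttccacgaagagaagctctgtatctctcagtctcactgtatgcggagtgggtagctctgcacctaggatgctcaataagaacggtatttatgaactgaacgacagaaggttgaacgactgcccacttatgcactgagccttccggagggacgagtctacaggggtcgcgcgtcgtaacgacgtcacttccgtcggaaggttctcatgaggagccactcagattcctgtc
ZRSR2, chrX:15790234-15790483, plus strand: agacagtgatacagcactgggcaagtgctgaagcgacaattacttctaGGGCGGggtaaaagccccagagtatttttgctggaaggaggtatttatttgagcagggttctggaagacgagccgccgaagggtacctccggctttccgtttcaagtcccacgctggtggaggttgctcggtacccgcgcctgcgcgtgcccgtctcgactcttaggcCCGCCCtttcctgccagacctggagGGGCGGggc
RNPC3, chr1:103525449-103525698, plus strand: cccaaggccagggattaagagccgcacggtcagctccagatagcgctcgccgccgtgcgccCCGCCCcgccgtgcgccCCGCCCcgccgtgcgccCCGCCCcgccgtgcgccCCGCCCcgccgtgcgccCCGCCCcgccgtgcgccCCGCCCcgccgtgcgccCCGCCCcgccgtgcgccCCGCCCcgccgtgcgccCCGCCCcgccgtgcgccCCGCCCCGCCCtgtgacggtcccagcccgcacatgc

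Promoter windows were found for 8 of the 9 genes, all but SNRNP35. A GC box was present in 6 of the 8, beside 42.6% of 35116 windows of the same length. A CCAAT box was present in 3 of the 8 (ZMAT5, SNRNP25 and SNRNP48), beside 32.0% of all windows. The TATA box letters TATAAA were present in 0 of the 8, beside 10.7%. The window of PDCD7 held none of these letters, and that of ZRSR2 held 3 GC boxes. The RNPC3 window held 10 exact tandem copies of a 17-base unit, 11 GC boxes and 85.6% G and C, where the median window had 58.0%. As many GC boxes were found in 0.0769% of all windows. A match of letters is a description and shows no factor at work.

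The U11 proteins that sit at or near the 5′ splice site were taken first. SNRNP48 encodes the di-snRNP protein that contacts the 5′ splice site, and spans bases 7590198 to 7611967 of chromosome 6 (GRCh38.p14, as for all positions here). Its log2 levels were 7.67 and 7.39 untreated and 7.95 and 7.91 treated. Both treated arrays lay above both untreated arrays. The log2 difference was 0.40 (SE 0.20, 95% confidence interval -0.06 to 0.87, limma adjusted p = 0.603), or 1.321-fold. The 2 pairs gave 0.28 and 0.53, leaving out 1 array gave 0.26 to 0.55, and 68.9% of genes above background had a smaller absolute difference. In SNRNP48 and RNPC3 pre-mRNA a conserved element bound by the U11 snRNP is known to steer splicing to unproductive forms. A row summarises the whole gene, so productive and unproductive forms were not told apart.

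SNRNP35, on chromosome 12 at 123458139 to 123473154, encodes a U11 protein related to the U1 protein SNRNP70. Its log2 levels were 6.79 and 6.55 untreated and 6.67 and 6.70 treated. The treated values lay between the untreated values. The log2 difference was 0.02 (SE 0.19, interval -0.44 to 0.47), with -0.11 and 0.15 in the 2 pairs, and it was -0.01 with the arrays centred on ribosomal protein genes. RILPL1 overlaps this locus in the RefSeq table.

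SNRNP25, on chromosome 16 at 53828 to 57669, encodes a small U11 protein with a ubiquitin-like fold. It measured 7.64 and 7.68 untreated and 7.33 and 7.65 treated on the log2 scale. Only the replicate 1 treated array stood below the untreated arrays by more than their spread. The log2 difference of -0.17 (SE 0.20, interval -0.65 to 0.30) rested on pair values of -0.31 and -0.04. Without treated replicate 1 it was -0.01, and without treated replicate 2 it was -0.33.

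ZMAT5, on chromosome 22 at 29730956 to 29767007, encodes a U11 zinc finger protein. Its log2 levels were 6.18 and 6.23 untreated and 6.21 and 6.62 treated. The treated replicate 2 array alone was high, and the groups overlap. The log2 difference was 0.21 (SE 0.21, interval -0.29 to 0.71), with 0.03 and 0.39 in the 2 pairs. Without treated replicate 2 it was 0.0042, and without treated replicate 1 it was 0.42. CABP7 overlaps this locus in the RefSeq table.

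The next 3 genes encode di-snRNP proteins, of which the PDCD7 and RNPC3 proteins join U11 to U12. PDCD7, on chromosome 15 at 65117379 to 65133808, encodes the di-snRNP protein that bridges the SNRNP48 protein and the RNPC3 protein. It measured 8.19 and 8.29 untreated and 8.52 and 8.47 treated on the log2 scale. Both treated arrays were higher than both untreated arrays, and within-group SDs were 0.07 and 0.03. The log2 difference was 0.26 (SE 0.19, interval -0.18 to 0.69, limma adjusted p = 0.746), or 1.195-fold, with 0.33 and 0.18 in the 2 pairs.

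RNPC3, on chromosome 1 at 103525699 to 103555239, encodes the protein that holds a stem-loop of U12 snRNA and, through the PDCD7 protein, joins U12 to U11. Its log2 levels were 7.20 and 7.01 untreated and 7.10 and 7.27 treated. The groups overlap, and the pairs pointed in opposite directions, at -0.10 and 0.26. The log2 difference was 0.08 (SE 0.19, interval -0.38 to 0.53), and it was -0.02 without untreated replicate 2 and -0.01 without treated replicate 2. AMY2B overlaps this locus in the RefSeq table.

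ZCRB1 encodes a di-snRNP protein with an RNA recognition motif and a zinc knuckle, and lies on chromosome 12. The row naming ZCRB1 and MIR7851, a microRNA within the gene, measured 9.27 and 9.01 untreated and 9.12 and 9.03 treated on the log2 scale. The groups overlap, and the difference of the row was -0.06 (SE 0.20, interval -0.53 to 0.40). It cannot be assigned to ZCRB1 alone.

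The remaining proteins act at the 3′ end of the intron or after activation. ZRSR2, on chromosome X at 15790484 to 15823260, is a relative of U2AF1 that recognises the 3′ splice site of U12-type introns. It measured 6.37 and 6.48 untreated and 6.22 and 6.19 treated on the log2 scale. Both treated arrays were below both untreated arrays. The log2 difference was -0.23 (SE 0.18, interval -0.66 to 0.21, limma adjusted p = 0.782), or 1.17-fold lower, with -0.16 and -0.30 in the 2 pairs.

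SCNM1, on chromosome 1, is a zinc finger protein of the activated minor spliceosome, known in the mouse as a modifier of sodium channel splicing. Its row also names TNFAIP8L2. That row measured 9.98 and 10.03 untreated and 9.95 and 9.99 treated on the log2 scale, values that overlap and lie close together. The difference of the row was -0.04 (SE 0.18, interval -0.47 to 0.40).

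**Figure D2:**
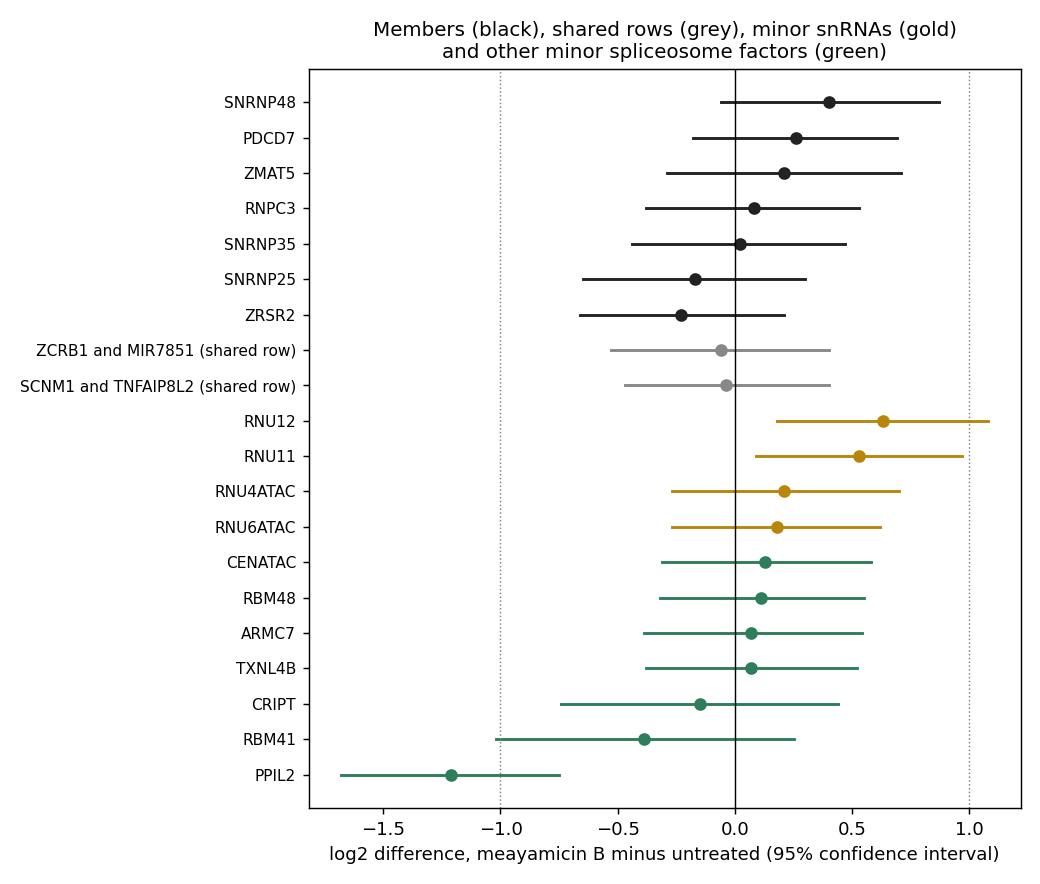
Log2 difference, meayamicin B minus untreated, with its 95% confidence interval (horizontal axis) for the 7 genes (black), the 2 shared rows (grey), the 4 minor snRNAs (gold) and 7 other minor spliceosome factors (green). Dotted lines mark a 2-fold change. The intervals of the 7 genes and 2 shared rows cross 0 and stay within the dotted lines, while that of PPIL2 runs from -1.68 to -0.75.

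The genes of the 4 RNA partners of these proteins had differences of 0.18 to 0.63, and 0 of the 4 passed limma's test over all rows with either prior. In 4 of the 4 both treated arrays lay above both untreated arrays, as in 18.9% of genes above background. The gap was very small for RNU4ATAC and RNU6ATAC. U11 snRNA (RNU11, chromosome 1 at 28648600 to 28648734) measured 7.85 and 7.74 untreated and 8.29 and 8.36 treated on the log2 scale. U12 snRNA (RNU12, chromosome 22 at 42615244 to 42615393) measured 8.15 and 8.14 untreated and 8.67 and 8.87 treated. Both were separated between groups, by 0.53 (SE 0.19, interval 0.09 to 0.97) and 0.63 (SE 0.19, interval 0.18 to 1.08).

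Neither snRNA passed limma's test over all rows with the default prior (adjusted p 0.426 and 0.347) or the trended prior (0.157 and 0.0728). With the trended prior on rows above background alone, limma called both (adjusted p 0.037 and 0.0151). With that prior over all rows limma called RNU12, but not RNU11, after a second quantile normalization (adjusted p 0.0392 and 0.0883). The same held with a replicate block (limma adjusted p 0.0131 and 0.0618). Neither RNU12 nor RNU11 was called by limma after centring on ribosomal protein genes (adjusted p 0.0983 and 0.2) or with a gene's rows averaged (0.0765 and 0.162). Leaving out 1 array gave differences of 0.48 to 0.58 for RNU11 and 0.53 to 0.73 for RNU12. RNU4ATAC, the U4atac gene, had a difference of 0.21 (SE 0.20) and RNU6ATAC, the U6atac gene, of 0.18 (SE 0.19). Of these 4 RNA genes 4 were higher in both pairs, as were 25.6% of genes above background, and their median was 0.37. By pair the median was 0.26 and then 0.49. TAF12-DT overlaps RNU11, CLASP1 and CLASP1-AS1 overlap RNU4ATAC, and LOC124902297 overlaps RNU6ATAC, so these rows may also take up RNA of those genes. RNA was purified on RNeasy columns per the labels, which retain short RNAs poorly, and how evenly they did so was not tested.

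**Figure D3:**
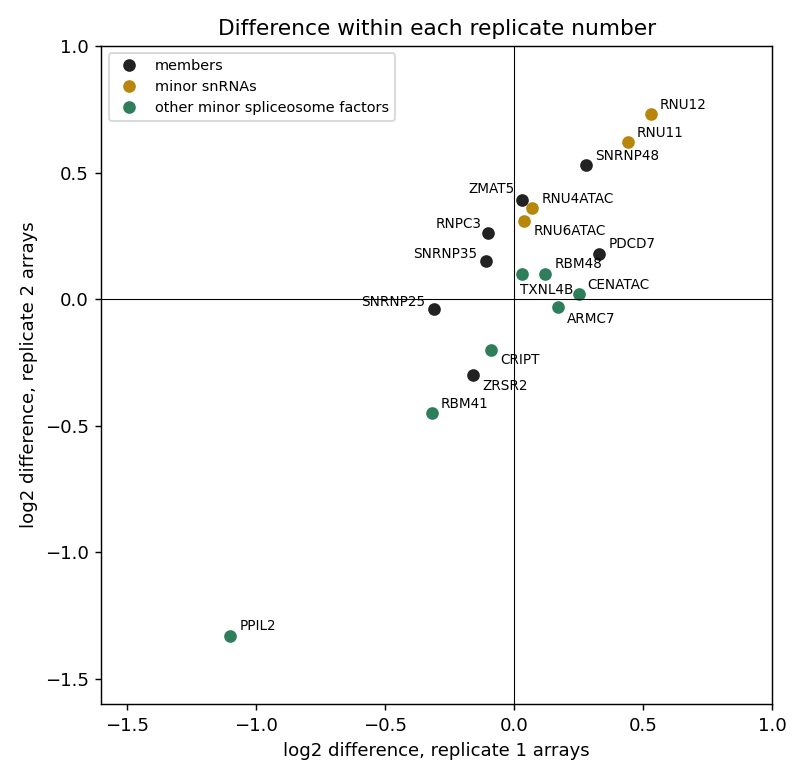
Log2 difference, meayamicin B minus untreated, within the replicate 1 arrays (horizontal axis) and within the replicate 2 arrays (vertical axis) for the 7 genes (black), the 4 minor snRNAs (gold) and 7 other factors (green). RNU11 and RNU12 lie high in both, and PPIL2 lies at -1.10 and -1.33. Among the 7 genes SNRNP48 lies at 0.28 and 0.53, PDCD7 lies at 0.33 and 0.18, and RNPC3 and SNRNP35 change sign between pairs. CENATAC is drawn from its brightest row.

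Among 7 other factors known from the minor spliceosome, PPIL2 fell with the trended prior. PPIL2, a cyclophilin with a U-box domain found in activated spliceosomes, lies on chromosome 22 at 21666012 to 21700015. Its log2 levels were 8.95 and 9.24 untreated and 7.85 and 7.91 treated. Both treated arrays were more than 1 log2 unit below both untreated arrays. The difference was -1.21 (SE 0.20), or 2.32-fold lower. It had a limma adjusted p of 0.114 with the default prior and 0.00495 with the trended prior, which called 6.53% of genes above background as lower and 0.727% as higher.

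The other 6 did not pass. CENATAC, a partner of TXNL4B in the minor tri-snRNP, is named on 11 rows, of which 10 are given no chromosome by their identifiers. The single CENATAC row on chromosome 11 was at 7.67 and 7.92 untreated and 7.89 and 7.95 treated, a difference of 0.12 (SE 0.19), the brightest row gave 0.13 (SE 0.19), and over the 11 rows differences ran from -0.21 to 0.57. RBM48 and its partner ARMC7, both components of the activated minor spliceosome, differed by 0.11 (SE 0.18) and 0.07 (SE 0.20). TXNL4B differed by 0.07 (SE 0.19), CRIPT, a small protein, by -0.15 (SE 0.25), and RBM41, which binds U12 and U6atac snRNA, by -0.39 (SE 0.27). The median of the 7 factors was 0.07.

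The proteins that the minor spliceosome shares with the major one were set beside its own. All 7 SF3B genes, whose products form the complex that meayamicin B binds, were above background, and 0 passed with either prior (limma adjusted p 0.469 to 0.984 by default). Their median was 0.25, from SF3B3 at -0.03 (SE 0.19) to PHF5A at 0.49 (SE 0.18), with SF3B1 at 0.33 (SE 0.20), SF3B2 at 0.19 (SE 0.19), SF3B4 at 0.37 (SE 0.19), SF3B5 at 0.25 (SE 0.22) and SF3B6 at 0.24 (SE 0.20). The 7 Sm protein genes, which ring every spliceosomal snRNA but U6 and U6atac, had a median of 0.20, and 0 passed with either prior. SNRPB was highest at 0.64 (SE 0.19) and SNRPG lowest at -0.11 (SE 0.19), next to SNRPD1 at 0.35 (SE 0.23) and SNRPE at 0.07 (SE 0.19).

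Of 15 tri-snRNP genes shared by both machines, 1 rose and 0 fell with the trended prior, which called 7.25% of genes above background, and their median was 0.04. PRPF3, a U4/U6 protein, measured 10.18 and 10.15 untreated and 11.23 and 11.31 treated on the log2 scale. Its groups were far apart, at 1.10 (SE 0.18, 2.148-fold, limma adjusted p = 0.119 by default and 0.0015 with the trended prior). PRPF31 had the next highest difference at 0.56 (SE 0.19). The U5 GTPase gene EFTUD2 (-0.60, SE 0.23) and the U4/U6 cyclophilin gene PPIH (-0.56, SE 0.26) were lowest, without passing.

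The major spliceosome has counterparts of several of these proteins. SNRNP70, the U1 relative of SNRNP35, had a log2 difference of 0.42 (SE 0.19) and U2AF1, the relative of ZRSR2, of -0.07 (SE 0.19). Of these 8 genes 1 rose and 1 fell with the trended prior, beside 7.25% called among genes above background. U2AF1L4, another U2AF1 relative, was at 0.66 (SE 0.18, limma adjusted p = 0.306 by default and 0.0475 trended), and SNRPA1, a U2 snRNP protein, at -0.52 (SE 0.18, limma adjusted p = 0.433 by default and 0.0284 trended). With the trended prior U2AF1L4 was not called after centring on ribosomal protein genes (limma adjusted p = 0.0666) or with a gene's rows averaged (0.0501), and neither was called when any 1 array was left out (limma adjusted p 0.0658 to 0.202). The median of the 8 was 0.31.

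**Figure D4:**
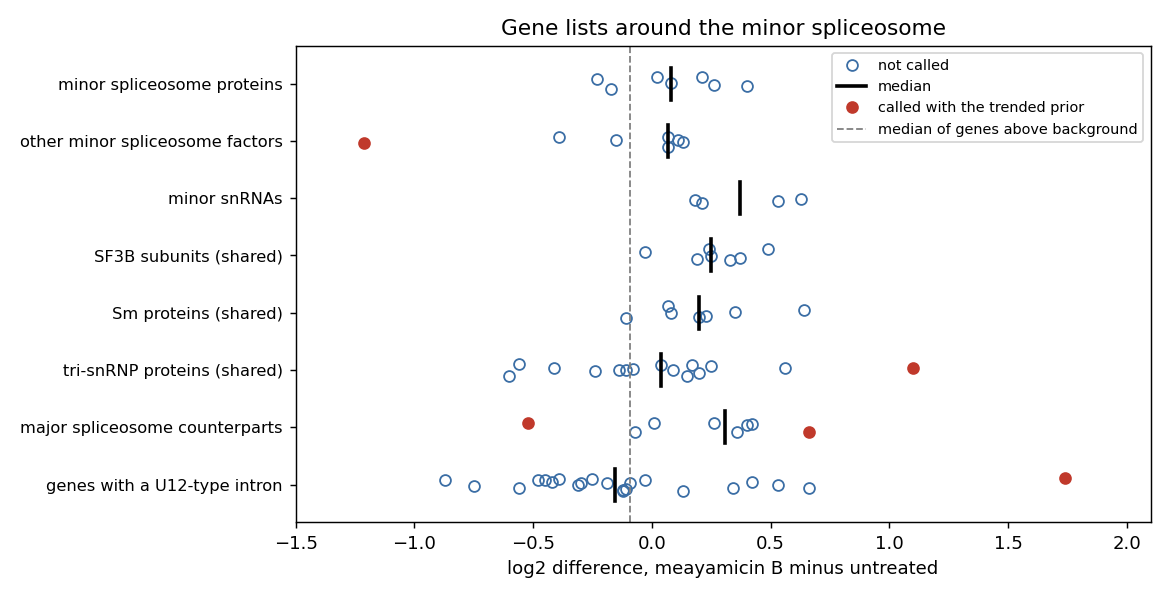
Log2 difference, meayamicin B minus untreated (horizontal axis), of each measured gene in 8 lists, with the list's median as a bar and the median of genes above background as a dashed line at -0.09. Filled red points passed the limma adjusted p threshold with the trended prior. The 7 minor spliceosome proteins lie between -0.23 and 0.40 with 0 filled points.

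Genes that carry a U12-type intron, the substrates of this machine, were listed last. Of 27 listed, 22 had a row of their own and the other 5 were not analysed here, and 20 of the 22 were above background. Their median was -0.16, where that of all genes above background was -0.09, with 6 of the 22 higher and 13 lower in both pairs. Among all genes above background 25.6% were higher and 46.7% lower in both pairs. The 6 include MAPK11 and MAPK13, which were below background in all 4 arrays, so the counts and these shares cover unlike sets. On rows above background alone the median of the list was -0.22. With the trended prior 1 of the 22 rose and 0 fell, where it called 0.727% of genes above background higher and 6.53% lower. E2F6, a repressor of the E2F family, was below background in both untreated arrays (4.14 and 3.70) and above it in both treated arrays (5.78 and 5.56), at least 2.06-fold higher. Its limma adjusted p was 0.0774 by default and 0.0119 with the trended prior, but 0.0712 without untreated replicate 2 and 0.0517 without treated replicate 1. E2F3 was next at 0.66 (SE 0.23), and the lowest were E2F1 at -0.87 (SE 0.26) and the mRNA export gene THOC2 at -0.75 (SE 0.23), none of the 3 past the threshold with either prior. The rows measure whole genes, so retention of a U12-type intron was not measured.

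SNRNP48 had the highest absolute moderated t of the 7 genes, and genes with a like pattern over the 4 arrays were sought among 12398 genes above background in all of them. The nearest by Euclidean distance, after subtraction of each gene's own mean, were KRTAP5-1 (0.016 log2 units), BRDT (0.026) and LRIG1 (0.027). Their differences were 0.41, 0.40 and 0.39, and with 4 arrays many patterns lie this close.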

How the data were processed

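Whole-transcript arrays of total RNA from 2 untreated and 2 meayamicin B samples of H929 were summarised by the authors with RMA, per the submitters' processing notes, which also name Transcriptome Analysis Console and the build hg38. The deposited values are on the log2 scale, as their range shows. RMA gives arrays a common distribution, so a shift of all RNA would be removed. The number of arrays limits the precision.

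Of 138745 rows, 2995 control rows were left out. Gene symbols came from the platform's annotation and were updated through RefSeq (GRCh38.p14). By these, 36176 rows named 1 gene, 1119 several and 98455 none. Each gene took the values of its brightest row by mean. Groups came from the treatment label. The two-sided test of limma 3.58.1 (R 4.3.3), from lmFit and eBayes, was fitted to all 135750 rows with Benjamini-Hochberg adjustment over all of them and a threshold of 0.05. SEs and intervals come from the default prior. A self-test on simulated rows of equal variance checked only the estimated size of planted differences, not the calls. Alternatives were a trended and robust prior, a replicate block, rows above background alone, centring on 60 ribosomal protein genes, quantile normalization once more, the mean of a gene's rows and leaving out each array. After seeing the data, each was repeated with the trended prior.

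The members and lists were chosen with earlier results of these data known, and the U12-type intron list came from general knowledge. Named were all members, all other minor spliceosome factors, minor snRNAs and SF3B genes, and of each further list the 2 highest and 2 lowest above background, and every gene called, with the 3 genes nearest in pattern to the member of highest absolute moderated t. The labels do not say that replicate numbers mark a shared batch, so the test used no block.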

Additional observations from a re-analysis of the deposited data

How the results depend on the processing

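Under 10 alternatives 0 of the 7 members passed, and under the 10 settings with the trended prior 0 passed as well. The lowest limma adjusted p of a member was 0.231 with the default prior and 0.151 with the trended prior, both on rows above background alone. Of 70 recomputed member differences 66 kept their sign. SNRNP35 was -0.01 with centring on ribosomal protein genes. Leaving out 1 array gave -0.02 to 0.17 for RNPC3, -0.10 to 0.13 for SNRNP35 and -0.02 to 0.17 for the median of the members. Second quantile normalization moved the median of genes above background by 0.06 and centring by -0.03.

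Over all rows limma called 11 genes, 11 with a replicate block, 1059 with the trended prior, 1096 on rows above background alone and 0 to 0 when 1 array was left out, where 1 residual degree of freedom remains and 9455 to 13226 rows had an unadjusted p under 0.05. That filter left 30594 rows to test. With the trended prior the count was 2319 on rows above background, 2168 with a replicate block, and 276 to 848 with 1 array left out (394 without untreated replicate 1, 276 without untreated replicate 2, 518 without treated replicate 2). The replicate block gave SNRNP48 0.40 (limma adjusted p = 0.601), and with the default prior it changed no call of a member or list gene. Deviations of same-numbered arrays had r = 0.022 across all rows and 0.096 across genes above background, and the numbers are not stated to pair the samples.

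On rows above background alone with the default prior, limma called 1 of the other minor spliceosome factors (PPIL2), 1 tri-snRNP gene (PRPF3) and 1 gene with a U12-type intron (E2F6). The trended prior called 1, 1 and 1 of these lists and 2 of the major spliceosome counterparts. E2F6 entered the rows above background only through its treated arrays, where it is high. Its call on those rows therefore adds no support. PPIL2 kept its call in every setting with the trended prior, with differences of -1.36 to -1.07 when 1 array was left out (limma adjusted p 0.0149 to 0.0428). After second quantile normalization the medians were 0.18 for the members, 0.16 for other minor spliceosome factors, 0.48 for minor snRNAs, 0.34 for SF3B genes, 0.16 for tri-snRNP genes and -0.09 for genes with a U12-type intron. The tri-snRNP median was 0.02 with centring, and that of genes with a U12-type intron was -0.22 on rows above background. Leaving out 1 array gave medians of 0.02 to 0.08 for other minor spliceosome factors, 0.31 to 0.48 for minor snRNAs, 0.16 to 0.33 for SF3B genes, 0.08 to 0.30 for Sm genes, -0.06 to 0.05 for tri-snRNP genes, 0.21 to 0.41 for major counterparts and -0.20 to -0.15 for genes with a U12-type intron. The cause of these shifts was not tested. With 2 arrays a group the precision is limited, and the smallest difference called among genes above background was 2.14 with the default prior and 0.45 with the trended prior.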
